A study of Homo sapiens with 12 samples.

Results

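The MDM2 locus and the main p53 target genes were followed through 12 RNA libraries from OCI-LY1, an established human cell line of diffuse large B-cell lymphoma, and its drug-resistant derivative. The set holds 9 features of the 59490 that carry a name used once in the deposited tables, and every one of the 9 was found by its name. Of these, 3 lie at the MDM2 locus (MDM2, AC025423.4 opposite it, and the neighbouring pseudogene AC025423.3), and 6 lie elsewhere (MDM4, CDKN1A, ZMAT3, SESN1, GADD45A and BTG2). The 9 were chosen by measured values of these same libraries, with their results known, so their levels and differences are given as a description with no p-value.

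Parental OCI-LY1 cells were set beside OCI-LY1R, a derivative made resistant to venetoclax by selection in rising concentrations up to 1 µM. Venetoclax inhibits the survival protein BCL2. Both lines received either DMSO as vehicle or 1 µM decitabine, a deoxycytidine analogue that traps DNA methyltransferases, for 3 days, giving 4 groups of 3 libraries. The resistant line is a single selected derivative, and the labels do not say whether the libraries of a group came from separate cultures, so all errors below measure the spread between libraries, which may be technical. Values are TPM, an abundance per feature length that sums to 1000000 in each library. The sequencing depth behind a TPM is unknown, so no counting interval or floor is given. Parental libraries carry replicate numbers; the resistant libraries could be matched only to their group and are lettered a, b and c.

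The p53 protein is a transcription factor that is stabilised after DNA damage and other stresses. It switches on genes that stop the cell cycle, repair DNA or start apoptosis. MDM2 is a ubiquitin ligase that binds p53 and sends it for degradation, and MDM4 is its partner, which masks the activation domain of p53. MDM2 is itself a p53 target through an internal promoter, so the protein and its inhibitor form a feedback loop.

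MDM2 lies on chromosome 12, plus strand, at chr12:68808176-68850686 (GRCh38, GENCODE 29). AC025423.4 is annotated as an antisense RNA on the minus strand at chr12:68841288-68843237. All 785 of its exonic bases lie opposite MDM2 exon sequence. AC025423.3 is a processed pseudogene on the minus strand at chr12:68805011-68805479, with 2697 bases between it and the first base of MDM2. CPM, the gene of carboxypeptidase M, a membrane enzyme that trims C-terminal residues from peptides, runs on the minus strand at chr12:68842197-68971570. It shares 133 of its 7535 exonic bases with MDM2 on the opposite strand and 0 with AC025423.4. The labels describe stranded libraries, but the strand setting used in counting is not given in the sources used here. Reads of MDM2 and of its antisense partner can therefore not be told apart. The same limit holds for CPM, and for every gene below that shares exonic bases with a feature on the opposite strand.

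**Figure D1:**
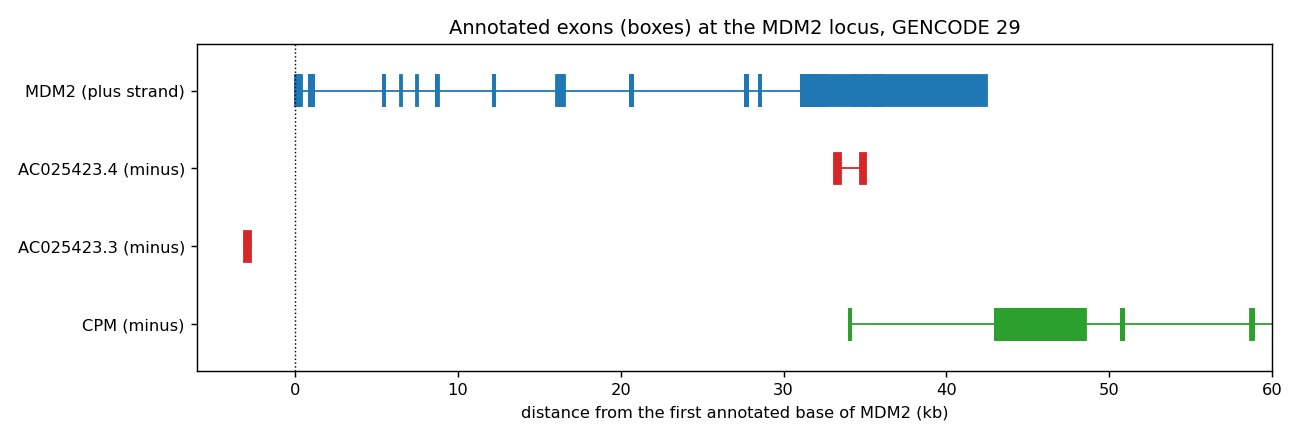
Exons (boxes) and introns (lines) of MDM2, AC025423.4, AC025423.3 and CPM by distance in kb from the first annotated base of MDM2, which is marked by the dotted line. AC025423.4 sits wholly inside the span of the last MDM2 exon, AC025423.3 lies upstream of MDM2, and CPM continues beyond the right edge.

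The promoters of MDM2 are shown because the internal one carries the p53 response that gives the gene its place in the pathway. The p53 response element consensus is a decamer repeated after a spacer of 0 to 13 bases, and since the decamer reads the same on both strands a single search covers both. Capitals mark the best match to the repeated decamer and the best match that shares no base with it. The windows end before the annotated exon and come from RefSeq's GRCh38.p14 start sites, the first at chr12:68807922-68808171 and the internal one at chr12:68808767-68809001, both on the plus strand.
MDM2 upstream promoter: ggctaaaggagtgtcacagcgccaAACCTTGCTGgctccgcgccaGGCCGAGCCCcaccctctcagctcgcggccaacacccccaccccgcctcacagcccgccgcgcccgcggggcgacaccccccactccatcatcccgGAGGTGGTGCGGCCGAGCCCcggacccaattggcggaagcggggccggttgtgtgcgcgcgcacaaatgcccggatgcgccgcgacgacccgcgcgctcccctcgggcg
MDM2 internal promoter: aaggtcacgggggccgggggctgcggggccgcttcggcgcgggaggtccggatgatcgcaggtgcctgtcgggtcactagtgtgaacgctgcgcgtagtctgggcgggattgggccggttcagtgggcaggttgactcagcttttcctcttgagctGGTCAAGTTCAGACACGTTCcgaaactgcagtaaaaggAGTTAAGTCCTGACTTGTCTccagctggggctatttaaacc
In the internal promoter the best match had the letters of the consensus at 18 of 20 positions, with no spacer, starting 94 bases before the start site. A match of 18 or more was found in 6.644% of 35116 windows of 250 bases before RefSeq start sites. A further match of 17 followed in the same window, and 2.025% of windows held matches at least as good on both counts. The upstream promoter reached 16, which 79.306% of windows do. Both matches of the internal promoter lie within 94 bases of its start site. Windows for the start sites next to these gave the same matches. The other windows for the set, 8 in all for BTG2, CDKN1A, MDM4, SESN1 and ZMAT3, had best matches of 15 to 18. GADD45A and both clone-named features had no window in the table. A match is a run of letters and no evidence that p53 is bound there.

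AC025423.3 is printed because it was listed at 0 in every vehicle library and above 0 under decitabine in every library but parental replicate 3. CpG dinucleotides, where DNA methyltransferases act, are in capitals. Bases 1 to 240 of its 469 are given on the minus strand, from its first base.
AC025423.3: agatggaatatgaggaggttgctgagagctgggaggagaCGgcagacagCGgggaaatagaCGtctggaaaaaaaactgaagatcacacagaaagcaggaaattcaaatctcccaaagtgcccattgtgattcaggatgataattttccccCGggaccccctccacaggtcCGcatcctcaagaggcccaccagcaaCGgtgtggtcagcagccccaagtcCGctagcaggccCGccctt
The whole feature holds 17 CpG and is 55.9% G or C. The 785 exonic bases of AC025423.4 hold 7 CpG and are 39.2% G or C.

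A single library, parental decitabine replicate 3, differed from the remaining 11 in its whole profile and is shown apart throughout. Its TPM were 89.4% protein-coding, against 26.6% to 32.2% in the 11, and 0.3% annotated as antisense, against 34.9% to 48.7%. It listed 13628 features at 1 TPM or more and the others 7078 to 9038. B-cell markers (8 genes) summed to 3271 TPM in replicate 3 and to 34.4 to 194 TPM in the 11, where CD79A, a B-cell receptor subunit, was at 3.39 to 8.75 TPM. Markers of T, myeloid, endothelial, fibroblast and epithelial cells (9 genes) summed to 1.69 TPM or less in the 11 and to 38.95 TPM in replicate 3. Of 8 housekeeping genes, 1 was listed at 0 in all 11 libraries, so an exact 0 is reported only as listed at 0. The part of these library differences in the results below was not tested, except where a value with and without replicate 3 is given.

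**Figure D2:**
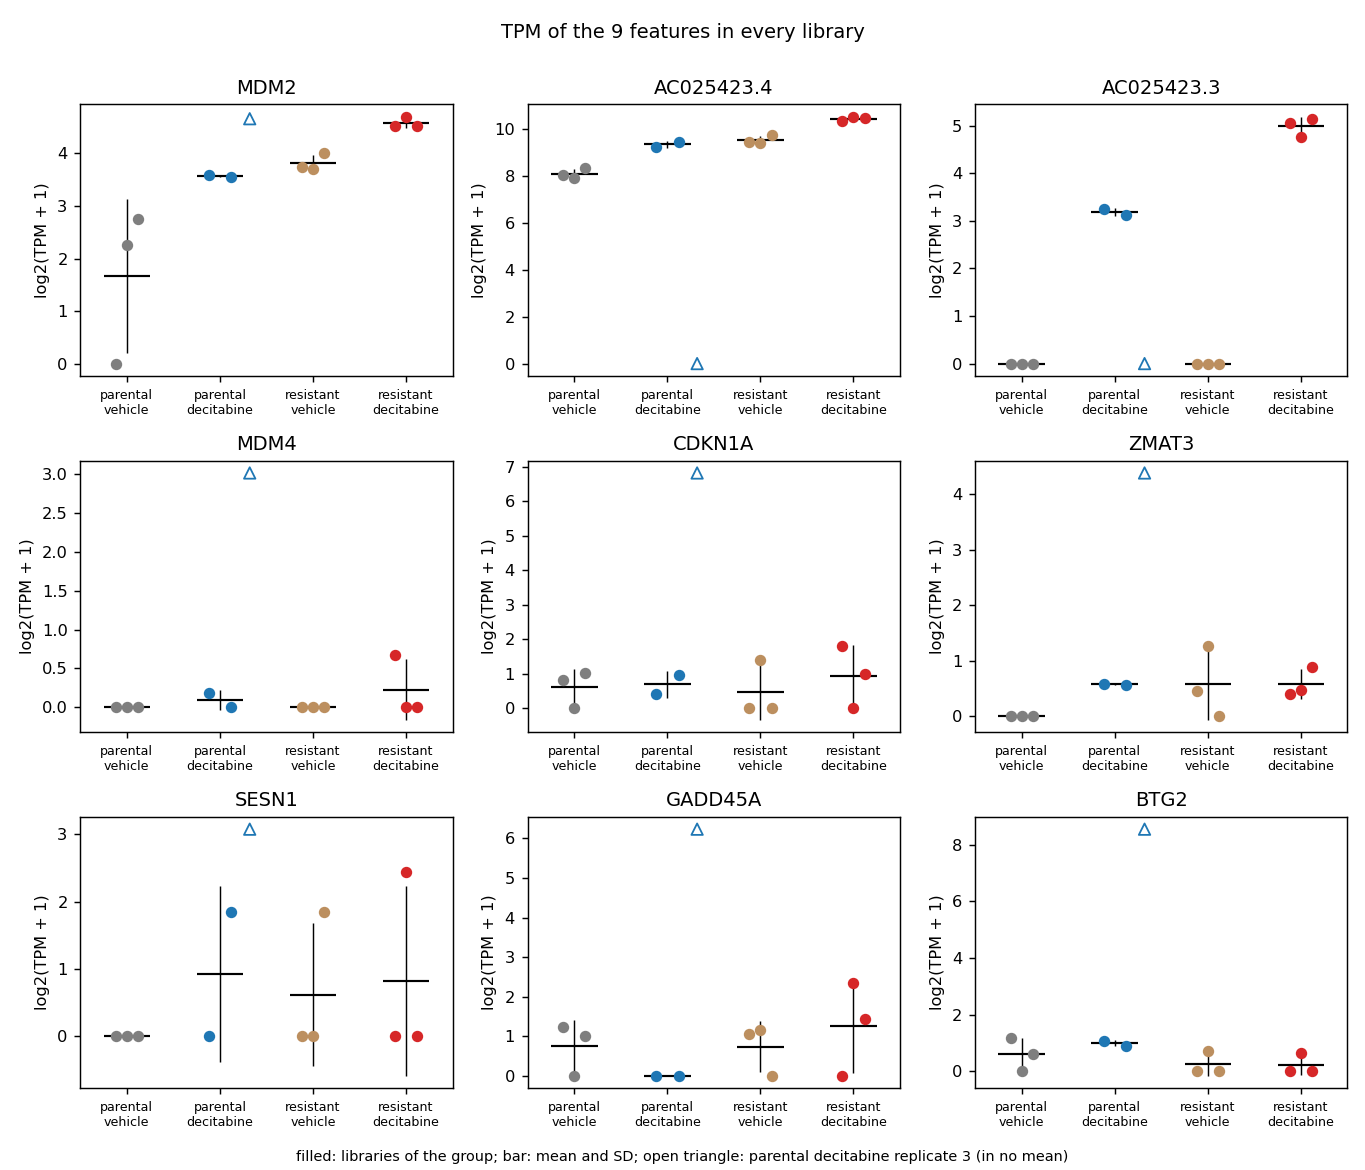
Abundance of the 9 features as log2(TPM + 1) in each library of the 4 groups, with bars for the group mean and SD and an open triangle for parental decitabine replicate 3, which is in no mean. MDM2 and AC025423.4 lie lowest in parental vehicle and, outside replicate 3, highest in resistant decitabine cells, AC025423.3 lies above 0 only in the decitabine groups, while the 6 features elsewhere stay at or below 4.45 TPM outside replicate 3.

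AC025423.4 was the most abundant feature of the set in each of the 11 libraries. It stood at 260.4, 236.9 and 318.7 TPM in parental vehicle cells, and at 608.3 and 691.1 TPM in parental decitabine replicates 1 and 2. Resistant cells had 699.9, 676.7 and 852.9 TPM under vehicle and 1317, 1450.3 and 1430 TPM under decitabine. The group means were 272 ± 42.1 (SD, n = 3), 649.7 ± 58.5 (n = 2), 743.2 ± 95.7 (n = 3) and 1399 ± 71.9 TPM (n = 3). The order was therefore parental vehicle, parental decitabine, resistant vehicle and resistant decitabine, with the middle groups overlapping: the lowest resistant vehicle library lay below the higher of the 2 parental decitabine libraries. In parental decitabine replicate 3 it was listed at 0.

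Outside parental replicate 3, AC025423.4 was higher under decitabine than under vehicle in both lines, without overlap between groups. The ratio of mean TPM was 2.39 in parental cells and 1.88 in resistant cells. On the log2(TPM + 1) scale the differences were 1.26 (SE 0.16) and 0.92 (SE 0.12). Groups without overlap, in either direction, were found for 39.4% of tested features in parental and 28.4% in resistant cells. With replicate 3 the parental difference of AC025423.4 was -1.85. Resistant cells held 2.73 times the parental level under vehicle, a log2 difference of 1.45 (SE 0.16), and 2.15 times under decitabine, 1.11 (SE 0.11). Decitabine-treated resistant cells held 5.14 times the level of untreated parental cells. In the model of the 4 group means, the difference between the responses of the lines was -0.34 (SE 0.20), resistant minus parental, and was not called; with replicate 3 included it was 2.77.

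MDM2 itself was listed at 0, 3.79 and 5.715 TPM in parental vehicle replicates 1, 2 and 3. It stood at 10.97 and 10.79 TPM in parental decitabine replicates 1 and 2. Resistant cells had 12.43, 12.05 and 15.02 TPM under vehicle and 21.95, 24.95 and 21.96 TPM under decitabine. No parental vehicle library reached the lowest library of any other group, and every resistant decitabine library lay above all libraries of the other 3 groups but parental replicate 3, at 24.29 TPM.

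The MDM2 difference with decitabine was 1.90 (SE 0.91) in parental and 0.76 (SE 0.19) in resistant cells on the log2 scale. Resistant cells exceeded parental cells by 2.15 (SE 0.74) under vehicle and by 1.01 (SE 0.19) under decitabine. MDM2 was called in none of these comparisons. Parental vehicle replicate 1, the library at 0, weighs on the values that use it: without it the parental response was 1.07 and the difference between lines under vehicle 1.31. In resistant cells the mean under decitabine, 22.95 ± 1.73 TPM, was 1.74 times that under vehicle, 13.2 ± 1.61 TPM (SD, n = 3 each).

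MDM2 and AC025423.4 kept close to a fixed ratio where MDM2 was above 0, outside replicate 3. Parental vehicle replicate 1, with MDM2 at 0 and AC025423.4 at 260.4 TPM, has no such ratio. In the 10 libraries outside replicate 3 in which MDM2 was above 0, AC025423.4 stood at 55.4 to 65.1 times MDM2 (median 57.5), both in TPM and so per feature length. That ratio spanned 1.17-fold while MDM2 spanned 6.58-fold and AC025423.4 6.12-fold over the same libraries. In replicate 3 the order was turned round, with MDM2 at 24.29 TPM and its antisense partner at 0.

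CPM followed the same order of groups. It was at 63.5, 51.3 and 75.9 TPM in parental vehicle cells and at 123.6 and 119.4 TPM in parental decitabine replicates 1 and 2. Resistant cells had 151.1, 158.8 and 177.5 TPM under vehicle and 243.7, 254.35 and 266.4 TPM under decitabine. No groups overlapped outside replicate 3, which had 0.0555 TPM. In the 4 group comparisons 28.1% to 39.4% of tested features had groups without overlap. The ratio of AC025423.4 to CPM lay between 4.10 and 5.79 over the 11 libraries, and the ratio of CPM to MDM2 between 10.2 and 13.5 in the 10 libraries with MDM2 above 0.

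CPM is not one of the 9 and was tested with limma over all features, with Benjamini-Hochberg adjustment. It comes from a list chosen with earlier results of these data known, so its p-values are a description. The strand limit given above applies to its values as well. It rose with decitabine in resistant cells by 0.65 (SE 0.12, adjusted p = 0.046), and it was higher in resistant than parental cells under vehicle by 1.35 (SE 0.17, adjusted p = 0.0247) and under decitabine by 1.06 (SE 0.11, adjusted p = 0.0372). In parental cells the difference with decitabine was 0.94 (SE 0.19, limma adjusted p = 0.106). The difference between the responses was -0.29 (SE 0.22, limma adjusted p = 0.685). Leaving out any 1 library ended the call in resistant cells and the call between lines under decitabine; under vehicle 5 of 6 left-out libraries ended it, all but parental replicate 3. Over all settings the limma adjusted p ran from 0.0373 to 0.133, from 0.0194 to 0.0945 and from 0.0341 to 0.655 in these 3 comparisons.

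**Figure D3:**
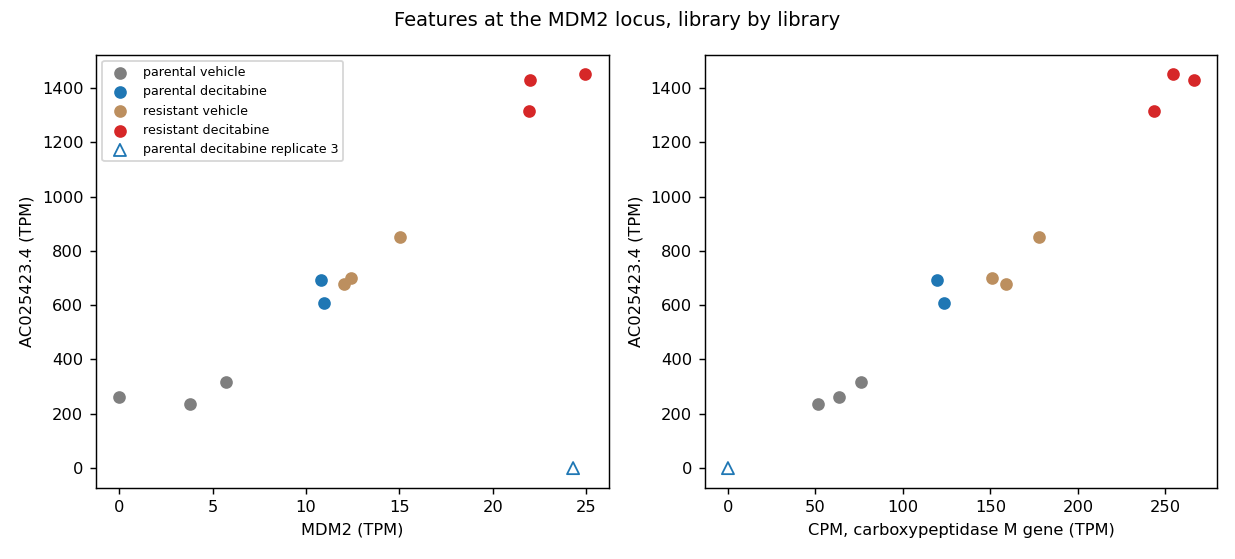
AC025423.4 in TPM against MDM2 (left) and against CPM (right), 1 point per library, coloured by group. Both axes run from parental vehicle to resistant decitabine cells, parental vehicle replicate 1 lies at 0 TPM of MDM2 with 260.4 TPM of AC025423.4, and parental decitabine replicate 3 (open triangle) lies at 0 TPM of AC025423.4.

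AC025423.3 was listed at 0 in all 6 vehicle libraries of both lines. Under decitabine it was at 8.46 and 7.77 TPM in parental replicates 1 and 2, and at 32.1, 26 and 34.4 TPM in resistant cells. It was again listed at 0 in parental replicate 3. Outside replicate 3 the groups did not overlap in either line, and resistant decitabine cells held 3.80 times the parental decitabine mean. The log2 differences with decitabine were 3.19 (SE 0.30) in parental and 4.98 (SE 0.25) in resistant cells, and, since every vehicle library was at 0, these sizes depend on the 1 TPM added before the logarithm. The resistant excess under decitabine was 1.80 (SE 0.22) and was not called; the difference between the responses was also 1.80 (SE 0.33), since both vehicle groups were at 0, and was not called. As a processed pseudogene, AC025423.3 can share reads with its parent gene and other copies, so its assignment is uncertain.

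The other annotated features within 50 kb of MDM2 were near 0 outside replicate 3. SLC35E3, a nucleotide-sugar transporter family gene 14212 bases upstream, reached at most 1.57 TPM in the 11 libraries and 8.59 TPM in replicate 3. AC025423.1 was listed at 0 in the 11, and AC025423.2, a pseudogene inside the last MDM2 exon, reached 0.0983 TPM there and 2.14 TPM in replicate 3. A list of 17 genes of the wider 12q15 region had 3 to 5 members above the filter per comparison, and CPM was the only one called.

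The counts of the 9 were read against all features. In parental cells 3 of the 9 passed the filter of a mean of at least 1 TPM, and 2 were called (AC025423.4 and AC025423.3), beside 1.86% of 8122 features; all 3 had groups without overlap, beside 39.4%. In resistant cells 5 passed and the same 2 were called, beside 3.59% of 8579; 3 of the 5 were without overlap, beside 28.4%. Between lines under vehicle 2 passed and AC025423.4 was called, beside 2.8% of 7761; both were without overlap, beside 28.1%. Under decitabine 5 passed and AC025423.4 was called, beside 0.831% of 9029; 3 were without overlap, beside 32.0%. For the difference between responses 3 passed and none was called, beside 0.364% of 8505. Since the 9 were selected on these values, nothing is read from the counts.

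The calls at the locus were repeated with each library left out. In parental cells AC025423.4 lost its call without any 1 of the 5 libraries, and its sign turned to -1.85 when replicate 3, where it was at 0, was included. AC025423.3 lost its parental call without any 1 vehicle library. AC025423.3 passed the filter through the decitabine libraries alone, so its calls support nothing. In resistant cells AC025423.4 lost its call without any 1 library but vehicle c. Between lines under vehicle AC025423.4 lost its call without parental replicate 1, parental replicate 2 or resistant c, and under decitabine without any 1 library.

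**Figure D4:**
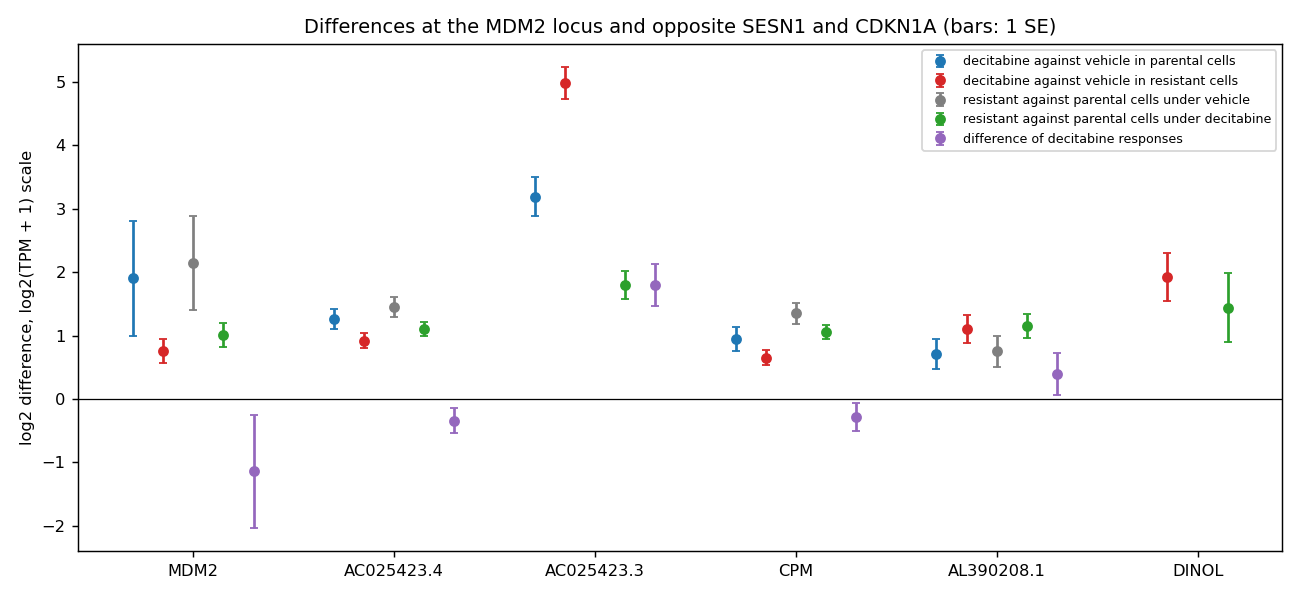
Log2 differences on the log2(TPM + 1) scale with 1 SE for the 3 locus features, CPM, AL390208.1 (opposite SESN1) and DINOL (opposite CDKN1A) in the 5 comparisons where each passed the filter. The 4 group comparisons lie above 0 for every feature shown, and the differences between the responses lie on both sides of 0. AC025423.3 and DINOL passed the filter through decitabine libraries alone, and their differences from vehicle depend on the 1 TPM added.

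The 6 members away from the locus were near 0 in the 11 libraries and present in replicate 3. The housekeeping genes ACTB and PPIA, though not GAPDH, also lay far below their replicate 3 level in the 11. The values near 0 are therefore not read as low expression of these p53 genes. MDM4 (chr1:204516379-204558120, plus strand), the p53 inhibitor related to MDM2, was above 0 in 2 of the 11 libraries, at 0.135 TPM in parental decitabine replicate 1 and 0.595 TPM in resistant decitabine a. It stood at 7.11 TPM in replicate 3.

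CDKN1A (chr6:36676460-36687339, plus strand) encodes p21, the inhibitor of cyclin-dependent kinases through which p53 stops the cell cycle. Parental libraries had 0.740, 0 and 1.03 TPM under vehicle and 0.328 and 0.948 TPM in decitabine replicates 1 and 2. Resistant libraries had 0, 1.65 and 0 TPM under vehicle and 2.48, 0 and 1.00 TPM under decitabine. The groups overlapped in each comparison, and replicate 3 had 111.9 TPM.

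GADD45A (chr1:67685061-67688338, plus strand), a growth arrest and DNA damage gene, was at 1.36, 0 and 1.005 TPM in parental vehicle cells and at 0 in decitabine replicates 1 and 2. Resistant cells had 1.07, 1.23 and 0 TPM under vehicle and 0, 4.10 and 1.73 TPM under decitabine, a log2 difference of 0.53 (SE 0.71). The resistant groups overlapped, and replicate 3 had 74.1 TPM.

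BTG2 (chr1:203305491-203309602, plus strand), an antiproliferative gene, was highest among the 11 at 1.24 TPM in parental vehicle replicate 1 and was listed at 0 in 5 of the 11. Parental decitabine replicates 1 and 2 had 1.08 and 0.868 TPM, above all 3 resistant decitabine libraries at 0, 0.56 and 0 TPM. It stood at 374.8 TPM in replicate 3, the highest value of any of the 9 there.

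ZMAT3 (chr3:179017223-179072279, minus strand), which encodes an RNA-binding zinc finger protein, had 0 TPM in each of the 3 parental vehicle libraries, against 0.492 and 0.476 TPM for decitabine replicates 1 and 2. Resistant cells had 0.365, 1.40 and 0 TPM under vehicle and 0.311, 0.378 and 0.842 TPM under decitabine. Replicate 3 had 19.9 TPM.

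SESN1 (chr6:108986437-109094819, minus strand), a sestrin that restrains mTORC1 under stress, was above 0 in 3 of the 11 libraries. These were parental decitabine replicate 2 at 2.59 TPM, resistant vehicle c at 2.60 TPM and resistant decitabine b at 4.45 TPM. The log2 difference with decitabine in resistant cells was 0.20 (SE 0.90), and replicate 3 had 7.44 TPM. None of these 6 was called in any comparison, and 4 of them (MDM4, CDKN1A, ZMAT3 and BTG2) passed the filter in none.

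Features on the opposite strand of these genes were also read. AL390208.1, an antisense RNA with 363 of its 644 exonic bases opposite SESN1, was at 25.04, 16.99 and 25.21 TPM in parental vehicle cells against 35.3 and 38.2 TPM for decitabine replicates 1 and 2. Resistant cells had 35.2, 31.4 and 48.9 TPM under vehicle and 98.1, 73.1 and 79 TPM under decitabine, and replicate 3 had 0. Outside replicate 3, decitabine and vehicle libraries did not overlap in either line, as for 39.4% of tested features in parental and 28.4% in resistant cells. The log2 differences were 0.71 (SE 0.23, limma adjusted p = 0.225) in parental and 1.11 (SE 0.22, limma adjusted p = 0.0598) in resistant cells, so neither passed the threshold. Between lines they were 0.75 (SE 0.25, limma adjusted p = 0.187) under vehicle and 1.15 (SE 0.19, limma adjusted p = 0.112) under decitabine.

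DINOL, a noncoding RNA transcribed next to the CDKN1A promoter and known as a p53 target, was listed at 0 in the 3 parental vehicle libraries. Parental decitabine replicates 1 and 2 had 1.17 and 0 TPM, and replicate 3 had 0.0739 TPM. Resistant cells had 0, 0.172 and 0 TPM under vehicle and 3.07, 1.91 and 4.40 TPM under decitabine. These groups did not overlap, as for 28.4% of tested features in resistant cells. The log2 difference in resistant cells was 1.92 (SE 0.38, limma adjusted p = 0.0576) and did not pass the threshold. DINOL passed the filter through the decitabine libraries alone, so this fit supports nothing. Its size depends on the 1 TPM added before the logarithm, and was 4.45 with 0.1 TPM added. DINOL shares 146 of its 951 exonic bases with CDKN1A. AL512306.1, a pseudogene inside MDM4, had 1.34 and 1.08 TPM in parental decitabine replicates 1 and 2. It had 0.265 TPM in replicate 3 and was listed at 0 elsewhere. No annotated feature lay opposite ZMAT3, GADD45A or BTG2.

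The wider pathway was read from 4 lists of p53 genes, 97 genes in all. Of these 30 to 34 passed the filter in each comparison and at most 1 was called, FAS each time. In parental cells 0 of 31 were called by limma (2 at an unadjusted p under 0.05) and the median log2 difference was -0.06, beside 0.21 over all features. In resistant cells 1 of 33 rose and none fell, with a median of 0.17 beside 0.21. Between lines 0 of 30 were called under vehicle (4 at an unadjusted p under 0.05, limma; median 0.06 beside 0.11) and 1 of 34 was higher in resistant cells under decitabine (median 0.23 beside 0.10). Over all features 1.86% were called in parental and 3.59% in resistant cells. Between lines the shares were 2.8% under vehicle and 0.831% under decitabine. An unadjusted p under 0.05 (limma) was found for 1461 of 8122 features in parental cells and 1496 of 7761 between lines under vehicle.

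FAS, the death receptor gene, had 8.63, 7.89 and 11.1 TPM in parental vehicle libraries. Decitabine replicates 1 and 2 had 1.81 and 0.881 TPM, and replicate 3 had 2.98 TPM. Resistant cells had 8.2, 9.54 and 15.2 TPM under vehicle and 73.3, 95.0 and 63.1 TPM under decitabine. Decitabine groups lay below vehicle in parental cells (log2 difference -2.14, SE 0.32, limma adjusted p = 0.0626), and FAS rose in resistant cells (2.73, SE 0.28, limma adjusted p = 0.0127, or 0.0518 without decitabine a). The responses differed by 4.87 (SE 0.43, limma adjusted p = 0.0019, or 0.167 with replicate 3). Under decitabine resistant cells were higher by 5.07 (SE 0.30, limma adjusted p = 0.0151), a call that ended without any 1 library. FAS comes from a list chosen with earlier results of these data known, so its p-values are a description.

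Among regulators of p53, 18 genes, 12 or 13 passed the filter and none was called; in resistant against parental vehicle cells 8 of 12 differences were above 0, and 3 had an unadjusted p under 0.05 (limma), beside 1496 of 7761 features. CDKN2A, which encodes the MDM2 antagonist ARF, was at 172.9 to 360.7 TPM in parental and 266.3 to 413.1 TPM in resistant vehicle cells.

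Of 40 targets in arrest, repair and metabolism 5 or 6 passed the filter and none was called. Some were listed at 0 in part of a group: XPC, a sensor of DNA lesions, was at 0, 111 and 105.5 TPM in parental vehicle cells, and TRAF4, a signalling adaptor, at 93.9 TPM in parental vehicle replicate 1 and at 0 in the other 10 libraries. Of 19 apoptosis targets 7 to 9 passed the filter, and FAS alone was called. PMAIP1, the BH3-only gene of NOXA, was at 4.02, 4.999 and 3.84 TPM in parental vehicle cells against 0.195 and 3.61 TPM for decitabine replicates 1 and 2.

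Of 20 cell-cycle genes that p53 lowers through p21 and the DREAM complex, 5 or 6 passed the filter and none was called. Their median log2 difference with decitabine was -0.42 in parental cells, where 0 of 6 lay above 0, and -0.72 in resistant cells, where 2 of 5 did, beside 0.21 over all features each time. FOXM1, a mitotic transcription factor, was at 46.0, 70.2 and 44.5 TPM in parental vehicle cells against 22.05 and 27.05 TPM for decitabine replicates 1 and 2. In resistant cells it was at 53.1 to 55.4 TPM under vehicle, against 25.3, 24.8 and 55.45 TPM under decitabine, with decitabine c at the vehicle level. ITFG2, on the opposite strand with 781 shared exonic bases, was at 249.6, 247.75 and 81.6 TPM in resistant decitabine a, b and c. In replicate 3 FOXM1 was at 130.5 TPM and ITFG2 at 25.7 TPM. Reads of both genes in the shared bases cannot be told apart, and the cause of the FOXM1 difference was not tested. PLK1, a mitotic kinase, was at 94.0 to 108.2 TPM in resistant vehicle cells and at 351.5, 84.3 and 84.9 TPM under decitabine. In parental cells PLK1 was at 202.7, 71.0 and 71.6 TPM under vehicle, against 67.8 and 71.25 TPM for decitabine replicates 1 and 2. MCM2, of the same list, was at 0, 0 and 61.3 TPM in parental vehicle cells and at 0 in decitabine replicates 1 and 2.

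Features opposite the p53 genes were counted as well, a step added after the members' values were seen. Of 67 such features outside the 9, 39 to 42 passed the filter. At most 2 were called in any comparison: 1 of 42 in parental cells, beside 1.86% of all features, and 2 of 42 in resistant cells, beside 3.59%. ITFG2, opposite FOXM1, rose with decitabine in parental cells by 2.06 (SE 0.11, limma adjusted p = 0.00891). Its limma adjusted p was 0.0598 without vehicle replicate 1, 0.0562 without vehicle replicate 2, 0.594 with replicate 3 and 0.389 with a replicate block. In resistant cells ITFG2 was at 249.6, 247.75 and 81.6 TPM under decitabine, against 78.2 to 80.7 TPM under vehicle, a difference of 1.10 (SE 0.45, limma adjusted p = 0.258). AC023593.1, opposite MCM2, fell by 0.53 in resistant cells (SE 0.10, limma adjusted p = 0.0494). That call ended without any 1 library (limma adjusted p of 0.0875 to 0.130), under quantile scaling (0.0637) and with no filter (0.161). AC009084.3, opposite CES2, was lower in resistant vehicle cells (-0.85, SE 0.11, limma adjusted p = 0.0266). That call ended without any 1 library but resistant b (limma adjusted p of 0.0553 to 0.108) and with no filter (0.0649). CPM was the only other one called, as given above.

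In replicate 3 the levels of the pathway differed, as did those of genes outside it. Higher there than in all 11 other libraries were 7 of 8 housekeeping genes and 7 of 8 B-cell markers. Of the 97 genes 89 were at 1 TPM or more there, with a median of 20.01 TPM, and 84 were higher than in every other library. Of the same genes 30 had a mean of at least 1 TPM over the 11, 45 were below 1 TPM in each of the 11 and 20 were listed at 0 in all 11. The comparison holds 1 library against 11 and has no replicate.

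**Figure D5:**
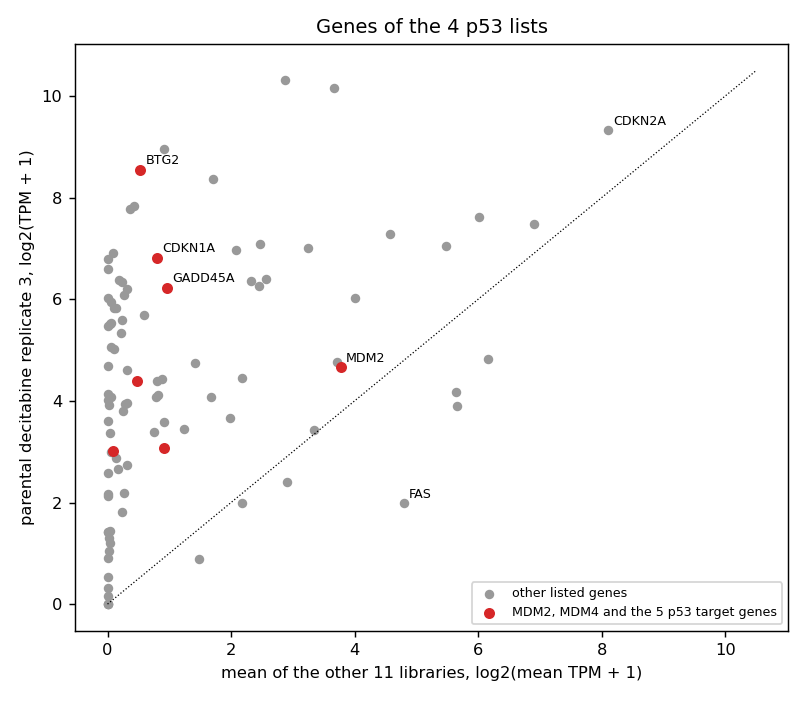
Each of the 97 genes of the 4 p53 lists, with the mean TPM of the 11 libraries on the horizontal axis and the TPM of parental decitabine replicate 3 on the vertical axis, both as log2(TPM + 1). Most genes lie above the dotted line of equal level, with BTG2, CDKN1A and GADD45A far above it, MDM2 near it and FAS below it.

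The features whose pattern over the 11 libraries was most like that of MDM2 were sought among 4950 with a mean of at least 5 TPM, by Pearson's r of log2(TPM + 1), given as a description. They were MPHOSPH9 (0.973), AL160270.1 (0.969), C6orf120 (0.948), MAN1B1 (0.945) and AC008040.1 (0.942). The libraries share their groups and the value at 0 in parental vehicle replicate 1, where MPHOSPH9 stood at 0.48 TPM and AL160270.1 at 0. AC025423.4 came 48th with 0.874 and CPM 66th with 0.856. For AC025423.4 as the reference, a search added afterwards, CPM came first with 0.989.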

How the data were processed

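Per the labels' protocols, polyadenylated RNA was made into stranded libraries for the DNBSEQ platform. HISAT2, StringTie, DESeq2 and hg38 are named in the submitters' processing notes; what is not given in the sources used here is their versions and order, the annotation and the strand setting. Values that the authors deposited, in 1 table per line, were read as TPM, since each library sums to 1000000.

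Names were used, because the identifiers of 5 of the 9 features belong to the name beside them. In parental decitabine replicate 3 the median over 77 ribosomal protein genes was 1006 TPM by name, against 0.000392 TPM by identifier. That check was made in this library alone. By name RPL5 was at 1148 TPM there and at 2.77 to 18.65 TPM in the 11. RPL11 was at 1271 TPM there and at 0 to 17.79 TPM in the 11. The check therefore does not show how well the names fit the other 11 libraries. Of 60656 features 1166 with repeated names were left out. Positions come from GENCODE 29 and promoters from RefSeq; 6 of the 9 had a promoter there.

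Comparisons used limma 3.58.1 (trend, R 4.3.3; tested on simulated data) on log2(TPM + 1). Of 50 features given a log2 difference of 1 in that test, 28% were recovered in parental and 40% in resistant cells. Between lines 34% were recovered under vehicle and 18% under decitabine, and 16% for the difference between the responses. At a log2 difference of 2 the shares were 52% to 74%. A feature that was not called may therefore still differ. Features averaging 1 TPM or more across the libraries of a comparison were tested, without parental decitabine replicate 3. "Called" means a Benjamini-Hochberg adjusted p under 0.05 over all features. A log2 difference on this scale understates changes of low features, and no ratio is given against a group that has a library at 0. Comparisons of lines set levels across 2 tables. The members and lists were chosen with earlier results of these data known. The named features are the 9, those opposite them or within 50 kb of MDM2, the called genes and up to 4 of highest mean TPM of each list, and the 5 most like MDM2; the result of 1 listed gene is not reported here. Lists for the MDM2 region, housekeeping, B-cell and other cell markers were also used. Alternatives were scaling, filter, pseudocount, replicate 3, a replicate block and each library left out.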

Additional observations from a re-analysis of the deposited data

Results flagged for a closer look

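The decitabine responses of FAS differed between the lines by 4.87 on the log2 scale (resistant minus parental, SE 0.43, limma adjusted p = 0.0019), with FAS higher under decitabine in 3 of 3 resistant libraries than in any resistant vehicle library and lower in both parental libraries than in any parental vehicle library. With replicate 3 the limma adjusted p was 0.167. FAS comes from a list chosen with earlier results of these data known, so these p-values are a description.

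Parental decitabine replicate 3 was left out of the main comparisons and entered alternatives only. It held 7 members above every vehicle library of either line. MDM2 was at 24.3 TPM, MDM4 at 7.11 TPM, CDKN1A at 111.9 TPM and ZMAT3 at 19.9 TPM. SESN1 was at 7.44 TPM, GADD45A at 74.1 TPM and BTG2 at 374.8 TPM. The clone-named features AC025423.4 and AC025423.3 were listed at 0 in the same library. In that library 7 of 8 housekeeping genes and 7 of 8 B-cell markers were also higher than in all 11 others. The share over all features was not counted. Replicate 3 is 1 library with no replicate, and the cause was not tested. No group held more than 3 libraries, so none was searched for outliers.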

How the results depend on the processing

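In parental cells 151 features were called (limma). The count was 35 with no filter, 0 with replicate 3 (262 at an unadjusted p under 0.05) and 0 with a replicate block (978 unadjusted), and 14 to 264 with 1 library left out. Median-ratio scaling called 1 p53 gene in place of 0. In resistant cells 308 were called, with 196 under quantile scaling, 73 with no filter, 194 with a mean of at least 5 TPM and 90 to 197 with 1 library left out, and 0 to 2 p53 genes. Between lines under vehicle 217 became 68 with no filter and 58 to 191 with 1 library left out; p53 genes numbered 1 at 5 TPM and 0 to 1 with 1 library left out. Under decitabine 75 became 21 with no filter, 0 with replicate 3 (285 unadjusted) and 0 to 17 with 1 library left out, and the p53 gene was lost with replicate 3 and whenever 1 library was left out (0 each time). The difference between the responses had 31 calls, 7 with no filter, 1 with replicate 3 (0 p53 genes) and 12 to 47 with 1 library left out. Causes were not tested. Where 1 parental decitabine library was left out, the single one left is assumed to vary like the other group.

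Replicate 3 turned the parental decitabine difference of AC025423.4 to -1.85, of CPM to -1.35 (limma adjusted p = 0.649) and of AL390208.1 to -1.04 (limma adjusted p = 0.659), and the difference of the responses to 2.77 for AC025423.4 and to 1.99 for CPM (limma adjusted p = 0.709). The replicate block was possible in parental cells only, since resistant columns carry no number. Same-numbered libraries did not deviate together (correlations of -0.011 and -0.012), so the numbers were not read as pairs. Quantile scaling moved the median over all features with decitabine from 0.21 to -0.02 in parental and to -0.06 in resistant cells; MDM2 kept its sign under it (0.58 in resistant cells). The unknown depth limits what can be said of features near 0.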
